A study of Homo sapiens with 6 samples.

Results

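The TNF receptor and TNF ligand superfamilies were examined in FUJIOKA, a line of human acute myeloid leukaemia cells chosen by the study for its high SPINK2 expression. Members were chosen by gene symbol alone, as every listed gene named TNFRSF or TNFSF with a number and at most 1 letter, together with FAS, FASLG, CD27, CD40, LTBR, NGFR and EDAR. This gave 40 of the 63236 genes in the deposited table, with 39 distinct symbols, because TNFRSF14 is listed under 2 identifiers. The series holds 3 libraries labelled shNEG, from cells with a scrambled control shRNA, and 3 labelled shSPINK2, from cells with an shRNA against SPINK2, a Kazal-type serine protease inhibitor. In both groups a doxycycline-inducible vector drives the shRNA in stably transduced cells, and no time on doxycycline is given for the RNA. The methods describe 1 SPINK2 shRNA and the labels 2, without saying which a library carries.

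The table analysed is the output of the authors' own comparison of these groups. Its only other value for a gene is 1 mean over all 6 libraries of the read count divided by a size factor, the mean normalized count. The columns of the comparison itself were not used, so no difference between shNEG and shSPINK2 is reported for any gene. What follows describes how strongly each member was expressed in FUJIOKA cells, pooled over both groups. The means of all genes sum to 38425214. For genes with a mean under 100, the whole reads of each library were recovered from the decimals of the mean, and these libraries, lettered A to F by rising size factor (0.985 to 1.03), carry no group label. The protocols mention no molecular identifiers, so intervals on reads cover counting error only and treat each read as if it came from its own molecule.

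Members of these families signal in trimers. A ligand, usually made as a membrane protein and often released by proteases, draws together receptors with cysteine-rich outer domains. Some receptors carry an inner death domain that recruits FADD or TRADD and can lead to caspase activation, and others bind TRAF adaptors and turn on NF-kB. Decoy receptors bind the ligand without a working death domain. Myeloid cells are known both to make several of these ligands and to respond to TNF.

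Of the 40 members, 24 had a mean normalized count of at least 10 and are taken as detected, 10 lay between 0 and 10, and 6 were at 0. The share detected, 60% of members, lies beside 25.5% of all genes listed and 63.1% of protein-coding genes. It was thus close to the share of protein-coding genes, which all but the second TNFRSF14 identifier are. By role, 9 of 12 receptors with a death domain or acting as decoys were detected, 9 of 16 listed TRAF-binding receptors and 6 of 12 ligands. The family held 0.104% of the summed means, and its 4 highest members, TNFSF13B, TNFRSF1A, LTBR and TNFRSF1B, made up 81.3% of the family's sum. TNFSF13B alone made up 35.6% of it. TNFSF13 and TNFSF4 followed, with means of 1358 and 1115, and the next 13 ran from TNFRSF10D, at 779, down to TNFRSF21, at 146. Another 5 had means between 10 and 100.

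**Figure D1:**
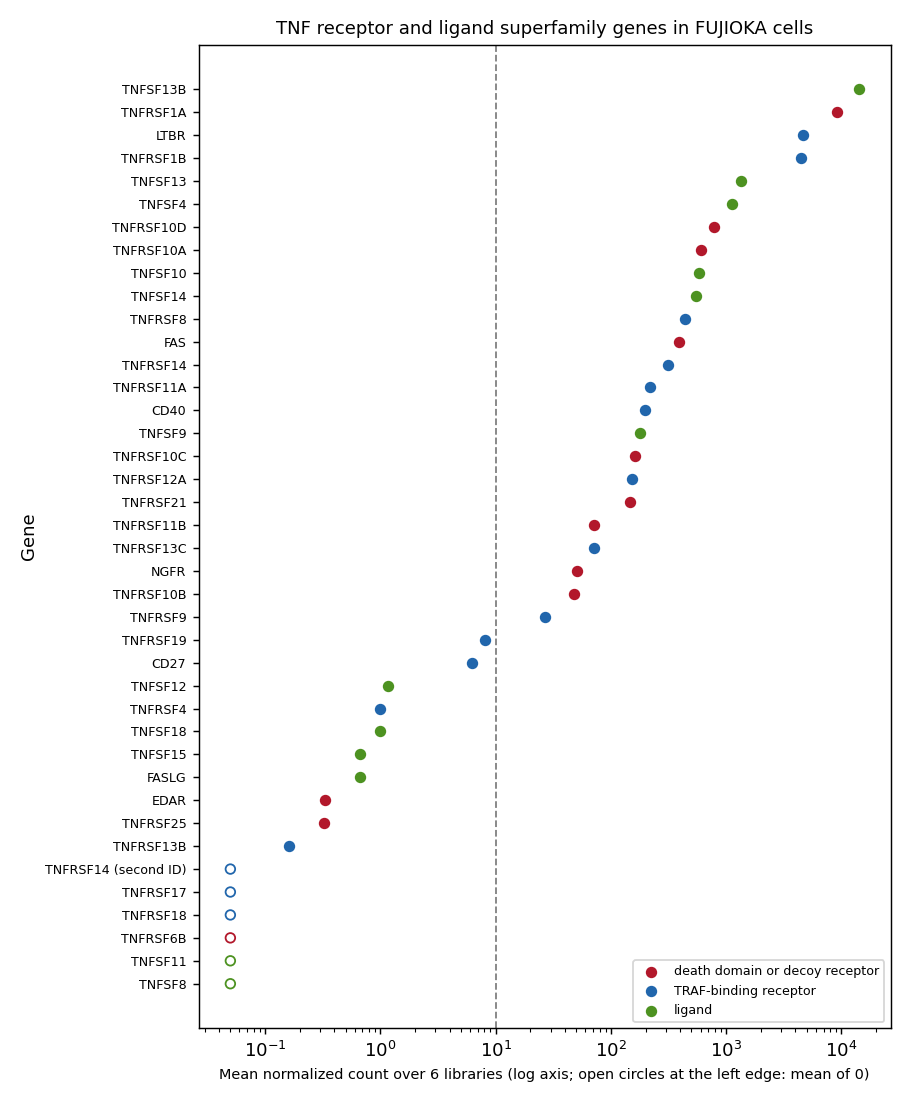
Mean normalized count over the 6 libraries (log axis) of the 40 family rows, coloured by role, with the detection minimum of 10 as a dashed line. TNFSF13B, TNFRSF1A, LTBR and TNFRSF1B stand highest, from 14245 down to 4423, and the 6 rows with a mean of 0 are drawn as open circles at the left edge.

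The targeted gene was read first. SPINK2 (ENSG00000128040.10), on chromosome 4 from 56809860 to 56821742 (GRCh38), had a mean normalized count of 32.3. Its recovered reads were 6, 53, 63, 56, 9 and 7 in libraries A, B, C, D, E and F. Libraries A, E and F thus had 6 to 9 reads and B, C and D had 53 to 63. No library was tied to a label by other means, so these reads do not check the labels. Whether this split is that of shNEG and shSPINK2 was not tested. The identity of the cells was read from marker genes. Of 12 genes of a myeloid leukaemia line, 10 were detected, led by LYZ with a mean of 44097, CEBPA and SPI1, whereas KIT (0.666) and CD14 (2.83) were not. None of the 5 T cell, 3 NK cell, 3 epithelial and 3 endothelial markers reached 10. CD79A (183) among the B cell markers reported here, COL1A1 (149) and DCN (34.1) of 3 fibroblast markers and KLF1 (14.9) of 3 erythroid markers did. The B cell markers MS4A1 and PAX5 were at 0.333 and 0.165, COL1A2 and HBB were at 0, and the part of other cells in any family value was not tested.

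Among receptors with a death domain, TNFRSF1A (ENSG00000067182.7), the main receptor for soluble TNF, was by far the most abundant. It lies on chromosome 12 from 6328757 to 6342114 and had a mean normalized count of 9172, above 97.7% of the 32220 genes with a mean over 0. Divided by the length of its canonical transcript, 2171 bases, this is 4225 per kilobase. FAS (ENSG00000026103.21), the receptor of FAS ligand, lies on chromosome 10 from 88953813 to 89029605, with a mean of 391 and 106 per kilobase of canonical transcript.

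The receptors of TRAIL lie side by side on chromosome 8 between 23020133 and 23225102, with at most 33889 bases between neighbours. They were expressed at unequal levels. Per kilobase of canonical transcript, TNFRSF10A, a death receptor, was at 227, the decoy TNFRSF10D, whose death domain is truncated, at 220, the lipid-anchored decoy TNFRSF10C at 116 and the other death receptor, TNFRSF10B, at 11.96. Their mean normalized counts were 610, 779, 162 and 47.8. TNFRSF10B was thus the lowest of the cluster on both scales. Its recovered reads were 49, 59, 47, 48, 43 and 42 in libraries A to F, and the exact Poisson 95% intervals of the lowest (30.3 to 56.8) and highest library (44.9 to 76.1) overlap. For TNFRSF10C, 24.2% of all windows of 100 bases along its canonical transcript also occur in a transcript of another gene in GENCODE 44, so its level is less certain. Of the exonic bases of TNFRSF10B, 7.5% lie opposite exons of RHOBTB2, with a mean of 1211. For TNFRSF10A, 16.7% lie opposite exons of other genes. The strand setting of the counting is not given, and the part of these overlaps in the levels was not tested. The secreted decoy TNFRSF11B (osteoprotegerin), also on chromosome 8, had 67, 78, 67, 81, 74 and 62 reads, and the counting intervals of its lowest (47.5 to 79.5) and highest (64.3 to 101) library overlap.

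TNFRSF21 (ENSG00000146072.6), known as DR6, is a death domain receptor for which no ligand of the family is established. It lies on chromosome 6 from 47231532 to 47309905 on the minus strand. Its mean normalized count of 146 placed it at rank 19 of the 24 detected members and above 66.0% of genes with a mean over 0, but above 36.0% of the protein-coding ones. Per kilobase of canonical transcript it was at 40.5, rank 18, below TNFRSF1A, TNFRSF10A, TNFRSF10D, TNFRSF10C and FAS and above TNFRSF11B (34.1), NGFR (14.9) and TNFRSF10B. The order of TNFRSF21 and FAS turns around per kilobase of all exons, where TNFRSF21 stayed at 40.5 and FAS was at 13.3. All of its exonic bases belong to it alone in GENCODE 44, and no window of 100 bases is shared with another gene. Its mean lies above 100, and its reads per library were not recovered.

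The remaining members of this class were low. NGFR, the low-affinity neurotrophin receptor, had 54, 60, 54, 58, 36 and 44 reads in libraries A to F. Libraries E and F were the lowest for NGFR, and the counting intervals of the lowest (25.2 to 49.8) and highest (45.8 to 77.2) library overlap. Of its exonic bases, 27.2% lie opposite exons of other genes, with means of 0 and 0.165. EDAR, the ectodysplasin receptor, had 2 reads in all, 1 each in libraries B and D, and TNFRSF25, the receptor of TNFSF15, had 2 reads in all, 1 each in E and F. The soluble decoy TNFRSF6B was at 0. All of its exonic bases are shared with the readthrough gene RTEL1-TNFRSF6B, which had a mean of 94.8, so a read from TNFRSF6B need not have been counted for it.

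**Figure D2:**
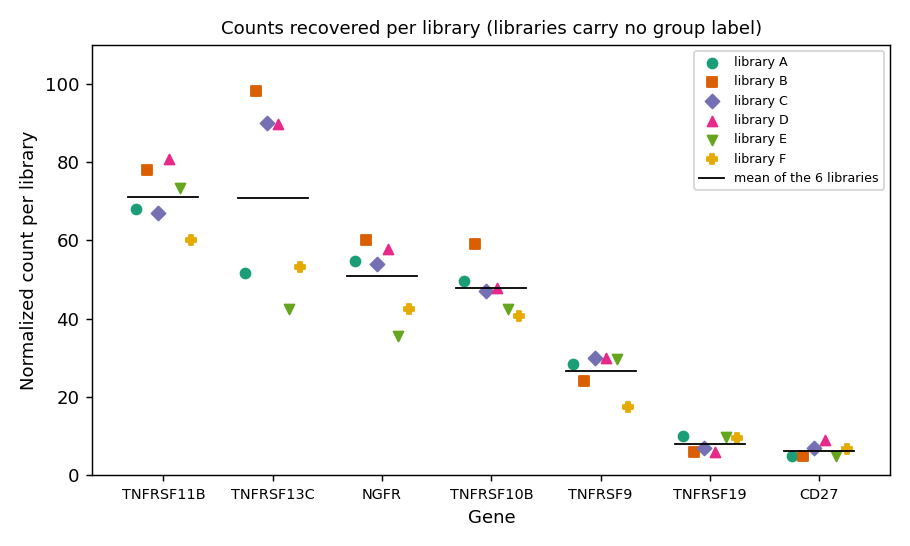
Normalized count of each of the 6 libraries (reads divided by the library's size factor) for the 7 members with a mean between 5 and 100, with a line at the mean. TNFRSF13C has 3 libraries between 89.7 and 98.1 and 3 between 42.6 and 53.2, and it is the only gene plotted whose counting intervals of the lowest and highest library do not overlap.

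TRAF-binding receptors were led by LTBR and TNFRSF1B. LTBR (ENSG00000111321.10), the lymphotoxin beta receptor, lies 32930 bases from TNFRSF1A on chromosome 12 and had a mean normalized count of 4649, or 2178 per kilobase of canonical transcript. TNFRSF1B (ENSG00000028137.18), the other TNF receptor, bound best by membrane TNF, lies on chromosome 1 from 12166991 to 12209228 and had 4423, or 1200 per kilobase. Both TNF receptors were therefore among the 4 highest members. CD27 and TNFRSF8, which lie beside them, were lower. CD27, a T and B cell costimulatory receptor 53383 bases from LTBR, had 5, 5, 7, 9, 5 and 7 reads in libraries A to F. TNFRSF8 (CD30), 22783 bases from TNFRSF1B, had a mean of 438, or 116 per kilobase. For CD27, 42.5% of the exonic bases lie opposite exons of CD27-AS1, with a mean of 208, and the strand setting of the counting is not given.

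The other detected receptors of this class had means from 310 down to 26.6.

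TNFRSF14 (HVEM, the herpesvirus entry mediator) was at 182 per kilobase of canonical transcript, TNFRSF12A (the TWEAK receptor) at 156, CD40 at 119 and TNFRSF11A (RANK, the receptor of the osteoclast factor TNFSF11) at 26.9. The BAFF receptor TNFRSF13C (ENSG00000159958.6), on chromosome 22 from 41922032 to 41926806, had 51, 98, 90, 90, 43 and 55 reads in libraries A to F. Libraries B, C and D were high for it and A, E and F low, and the exact Poisson 95% intervals of the lowest (31.1 to 57.9) and highest (79.6 to 119) library do not overlap. It was the only one of the 7 members plotted by library for which these intervals parted. The intervals make no allowance for picking the lowest and highest of 6 libraries or for looking at 7 genes. Where they overlap, that does not show the libraries to be equal. Where they part, that is no comparison of shNEG with shSPINK2. TNFRSF9 (CD137), a costimulatory receptor, had 28, 24, 30, 30, 30 and 18 reads and was at 4.53 per kilobase, the lowest of the detected members.

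TNFRSF19 had 10, 6, 7, 6, 10 and 10 reads in libraries A to F. Libraries A, E and F were the higher for it, but the counting intervals of the lowest (2.20 to 13.1) and highest (4.80 to 18.4) library overlap. The other receptors of this class were at or near the floor. TNFRSF4 (OX40) had 6 reads in all 6 libraries, TNFRSF13B (TACI) had 1, and TNFRSF17 (BCMA) and TNFRSF18 (GITR) had 0, which allows up to 3 reads over the 6 libraries, a mean of about 0.5. The second TNFRSF14 identifier, ENSG00000273936.4, was also at 0 and has no place in GENCODE 44.

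Ligands held the highest member of all. TNFSF13B (ENSG00000102524.11), the B cell survival factor BAFF, lies on chromosome 13 from 108251240 to 108308484. Its mean normalized count of 14245 exceeded that of 98.8% of genes with a mean over 0, and it was also first per kilobase of canonical transcript, at 5530. TNFSF13 (APRIL), its closest relative, had a mean of 1358 and TNFSF4 (OX40 ligand) one of 1115. TNFSF10 (TRAIL) had 580, TNFSF14 (LIGHT) 550 and TNFSF9 (CD137 ligand) 179, which are 309, 123 and 110 per kilobase. The value of TNFSF13 has a limit. Of its exonic bases, 55.5% are shared with the readthrough gene TNFSF12-TNFSF13, which was itself at 0. TNFSF12 (TWEAK), which ends 401 bases before TNFSF13 and shares 12.1% of its exonic bases with the same gene, had 7 reads in all, 1, 0, 1, 2, 2 and 1 in libraries A to F. If reads in shared exons were left uncounted, both genes are understated, and this was not tested.

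The other ligands were at or near the floor. TNFSF18 had 6 reads over the 6 libraries, TNFSF15 and FASLG 4 each, and TNFSF8 and TNFSF11 had 0. The 3 reads of TNFSF15 in library A and 1 in library F, and the 2 reads of FASLG in each of B and D, are too few to compare libraries. TNFSF18 lies 132789 bases from the detected TNFSF4 on chromosome 1.

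Established ligand and receptor pairs were set side by side, including the family genes that carry another symbol (TNF, LTB, CD40LG, CD70 and EDA among the ligands, EDA2R among the receptors). Of 17 ligands, 10 were detected, and for 6 of these a receptor was detected too. These were TNFSF13B, TNFSF10, TNFSF14, TNFSF9, TNF and LTB. LTA, with 5 reads in all, was not in the pair list, so LTB was paired with LTBR without regard to LTA. Over the 31 pairs, both partners were detected in 12, the receptor alone in 6, the ligand alone in 9 and neither in 4. TNFRSF6B, paired with TNFSF14, TNFSF15 and FASLG, and TNFSF12 entered as undetected. Some of their reads may have been left uncounted in exons shared with readthrough genes. Of protein-coding genes 63.1% reached the same minimum singly, and the share of pairs of other genes with both detected was not counted. The pair counts are therefore a description, not a sign that partners are detected together. The widest gap within a detected pair was that of BAFF, at 5530 per kilobase of canonical transcript against 18.1 for TNFRSF13C, its other receptors TNFRSF13B and TNFRSF17 being undetected. In TRAIL and TNFRSF10A the partners were at 309 and 227. For TNF the order was turned around, with 145 per kilobase for TNF itself and 4225 and 1200 for TNFRSF1A and TNFRSF1B.

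Receptors detected without their ligand were TNFRSF8, TNFRSF11A, TNFRSF11B (for TNFSF11), TNFRSF12A, FAS and CD40. CD40LG had a mean of 0.987 and FASLG of 0.666. Ligands detected without their own receptor were TNFSF13, TNFSF4, CD70 and EDA. For CD70 this rests on a minimum that is not scaled for length. Its receptor CD27 had reads in every library and 5.06 per kilobase of canonical transcript, above the detected TNFRSF9 at 4.53. CD27 (mean 6.30) and TNFRSF4 (1.00), the receptor of TNFSF4, reach a minimum of 1, whereas the receptors of TNFSF13 and EDA do not. EDA was at 105 per kilobase, whereas its receptors EDAR and EDA2R were at 0.0820 and 0.0467. These are RNA levels in a culture of 1 cell line, and they do not show which proteins reach the surface.

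**Figure D3:**
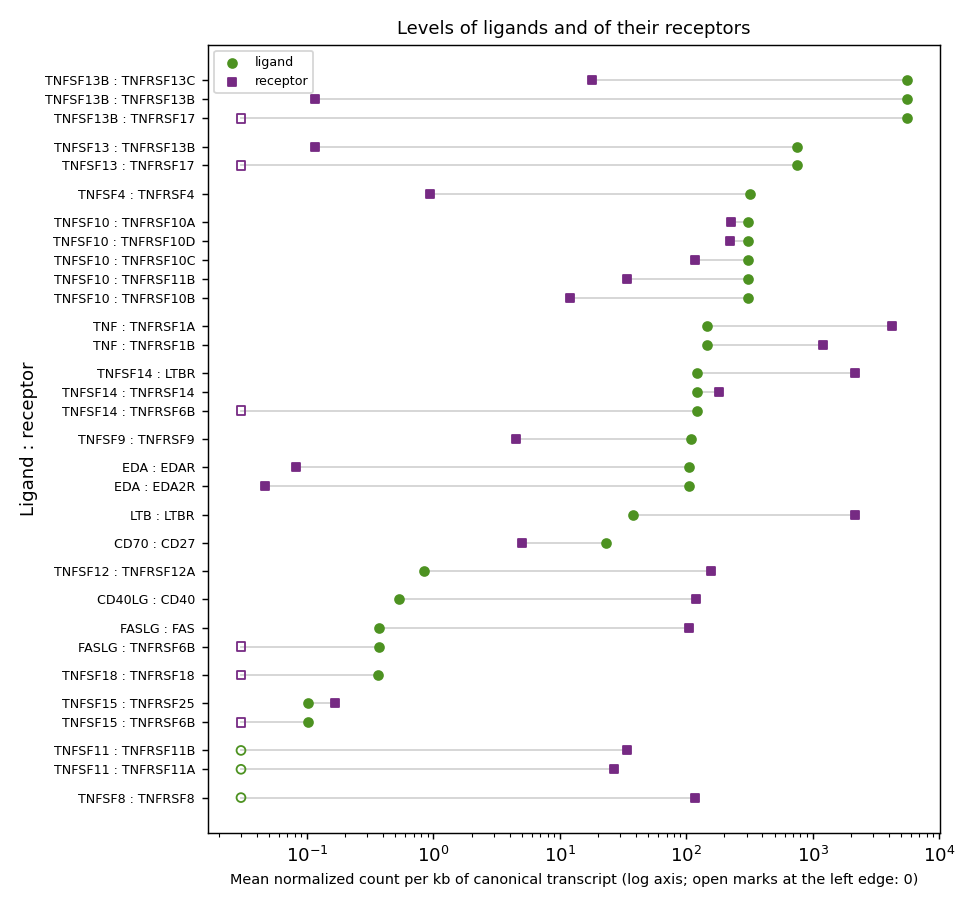
Mean normalized count per kilobase of canonical transcript (log axis) for the 31 ligand and receptor pairs, with ligands as circles, receptors as squares and open marks for a mean of 0. The TNFSF13B circles lie at 5530 with all 3 receptors at 18.1 or lower, while the TNF circles at 145 lie left of both TNF receptors.

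The genes that carry the signal inward were almost all present. Of 32 adaptor and signalling genes, 31 had a mean of at least 10, beside 63.1% of protein-coding genes. Their median mean normalized count was 1373. The genes were listed by name, so the count describes the list and is not a trait of this cell line. Per kilobase of canonical transcript the highest were SHARPIN (1111), a part of the linear ubiquitin complex, CASP8 (891), the initiator caspase of death receptors, TANK (737), TAB1 (699) and MAP3K7 (678), the kinase TAK1. The death domain adaptors TRADD and FADD were at 491 and 452. EDARADD, the adaptor of EDAR, was the one undetected gene, with 4 reads over the 6 libraries, so neither EDAR nor its adaptor was detected. TRADD, FADD, TRAF1 and CFLAR were picked out after their values were seen. TRAF1, often induced by NF-kB, had 62, 35, 34, 34, 34 and 49 reads in libraries A to F, with A the highest. The counting intervals of its lowest (23.55 to 47.51) and highest (47.54 to 79.48) library narrowly fail to overlap. CFLAR, which blocks CASP8, had the highest mean of the list, 3912, or 268 per kilobase. ADAM10 and ADAM17, proteases that release TNF and several receptors from the membrane, were at 324 and 527 per kilobase.

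Of the family genes that the symbol rule leaves out, RELT had a mean normalized count of 1370, EDA of 549 and TNF of 243. LTB had 36, 24, 32, 27, 41 and 46 reads in libraries A to F and CD70 14, 20, 30, 17, 24 and 22. LTA, CD40LG and EDA2R had 5, 6 and 1 reads in all. TNF, LTA and LTB are listed under 7 or 8 identifiers each, of which all but 1 were at 0.

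**Figure D4:**
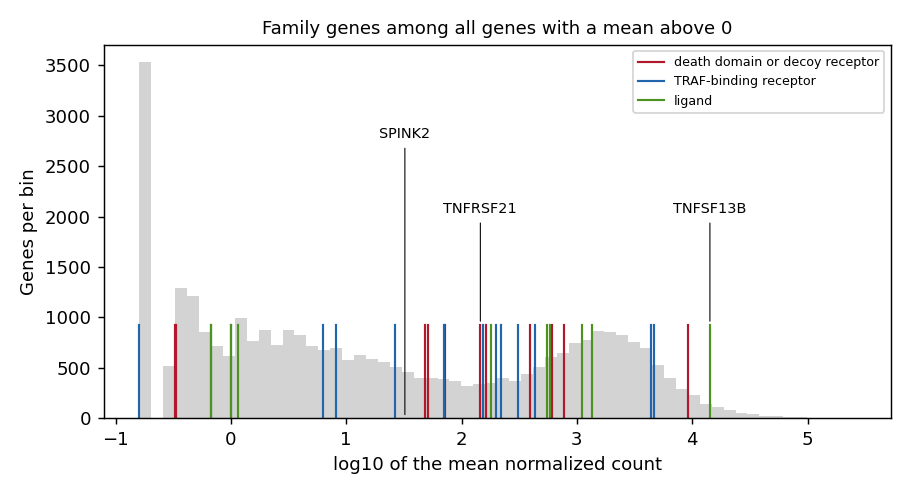
Histogram of the log10 mean normalized count of the 32220 genes with a mean over 0 (grey, genes per bin), with a line for each family gene coloured by role. TNFRSF21, with a mean of 146, lies above 66.0% of these genes, TNFSF13B, with 14245, lies at the upper end, and SPINK2, with 32.3, is marked for reference.

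The labels name the target sequences of the shRNAs, which allows the 3′ UTRs of the family to be read for the words that pair with the start of each guide strand. Both targets occur once in the canonical SPINK2 transcript of 722 bases, at positions 395 to 415 for shRNA1 and 287 to 307 for shRNA2, and in no canonical transcript of a member. They are shown 5′ to 3′ as the sense strand, with the bases that pair with guide positions 2 to 8 in capitals.
shRNA1: tcagggaaggtggTCATAATa
shRNA2: cgccaaactgctcTCAGTATa
The word TCATAAT of shRNA1 occurs in the 3′ UTR of 4 of 39 members (10.3%), which are EDAR, TNFRSF19, TNFSF10 and TNFSF4, beside 12.4% of 19539 protein-coding genes. The word TCAGTAT of shRNA2 occurs in 3 members (7.69%), which are TNFRSF11A, TNFRSF19 and TNFSF11, beside 13.1% of genes. Members held neither word more often than genes at large.

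Another word, GCTCTCA, pairs with guide positions 6 to 12 of shRNA2 and was taken up because of earlier results on these data. It occurs in 6 of 39 members (15.4%) beside 9.74% of genes, namely FAS, TNFRSF10A, TNFRSF11A, TNFRSF21, TNFRSF9 and TNFSF4. Because the word was chosen in this way, the higher share among members cannot be read as an excess. The lengths of the 3′ UTRs were not matched. The shRNA2 target with this word in capitals and the matching stretches of TNFRSF21 (from base 968 of its 3′ UTR of 1233 bases), FAS and TNFRSF9 are shown to compare the bases beside it.
shRNA2: cgccaaactGCTCTCAgtata
TNFRSF21: ccaatctGCTCTCAaggcctt
FAS: actaactGCTCTCAgagaaag
TNFRSF9: gagcgagGCTCTCAtgtgtcc
A word match is a description of the reference sequence and does not show that a guide acts there.

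Promoters were read from 250 bases before to 50 after the gene start in RefSeq (GRCh38.p14), where 25 of the 39 symbols matched. The NF-kB consensus was found in 4 of the 25 (TNFRSF14, TNFRSF25, TNFRSF9 and TNFSF14), 16% beside 10.8% of 27305 promoters. The AP-1 word TGANTCA was found in 6 (24%, beside 7.76%), among them FAS, TNFRSF8 and TNFRSF9. The word GAGGAA, the core bound by PU.1, was found in 7 (28%, beside 27.6%), among them TNFSF13B, TNFSF13, LTBR and TNFRSF21. The ETS word CCGGAA was found in 4 (16%, beside 17.6%) and TATAAA in 3 (12%, beside 12%). All were searched on both strands, and matches of different words may overlap. TNFRSF9 is a gene often induced by NF-kB, and its match, in capitals, starts 74 bases before the gene start on the minus strand at chr1:7940894-7940923.
TNFRSF9: gagctgtggtGGGAATTTCCcatgagaccc
Of the members with a match, TNFSF14 had a mean normalized count of 550, TNFRSF14 of 310, TNFRSF9 of 26.6 and TNFRSF25 of 0.326. A motif is not a bound site, and with 25 promoters these shares move by 4 percentage points for each promoter.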

How the data were processed

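RNA of 6 libraries was sequenced as paired reads of 150 bases. STAR (alignment to GRCh38), featureCounts (reads per gene) and DESeq2 (normalization and comparison) were run by the authors, whose processing notes list STAR 2.7.11 and DESeq2 1.40.0. The annotation release and strand setting are not given in the sources used here. The deposited table holds, per gene, a signal, the authors' mean over all libraries of counts divided by size factors. Its other columns hold the authors' own comparison (log2 fold change, its error, statistic, p-values and a call) and were not used.

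Members and lists were chosen with earlier results of these data known. Members with a mean of at least 10 were described singly, the rest by name and range. Genes were matched to GENCODE 44 by identifier without version (57577 of 63236; 39 of 40 members) for position, length and exon overlap.

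Where all libraries together hold 1 read, the mean depends on a single size factor. The 6 most shared means (546 to 662 genes each) gave the size factors, refined on 650 means under 1. Reads were the whole numbers whose scaled sum met the mean within its rounding, with a ratio among libraries under 20. Of 100 genes drawn with a mean under 100, 100 had exactly 1 solution, as had 15 of 15 members. The draw left out the lowest means, so it did not cover CD27 and the members below it. The search was tested on simulated data. Libraries known only by a size factor have no label and entered no comparison between groups and no test; for single genes, exact Poisson intervals of the lowest and highest library were set side by side. The depth of single libraries is unknown. Scripts ran under Python 3.11.15 with numba 0.67.0, scipy 1.17.1, pandas 2.3.3 and numpy 2.4.6. A marker gene is not reported here.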

Additional observations from a re-analysis of the deposited data

How the results depend on the processing

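The count of 24 detected members was 28 at a minimum mean of 1, 22 at 50, and 29 with family genes of another symbol added. Ligand and receptor pairs were counted at the main minimum only. The share of genes detected, 25.5% of all genes listed, was 63.1% of protein-coding genes and 50.1% of genes with a mean above 0, so the setting of the members' 60% depends on the background. The median percentile of detected members, 70.2 among genes with a mean above 0, was 42.5 among protein-coding genes and 40.7 among all detected genes. The 4 highest members by mean were also the 4 highest per kilobase of canonical transcript and, added after seeing the data, per kilobase of all exons, where the FAS value fell from 106 to 13.3. Reads had 1 solution for all 15 members searched under a tolerance 3 times wider and with no limit on the ratio among libraries. Leaving out each library in turn, the highest over the lowest normalized count of TNFRSF13C lay between 1.90 and 2.30, of TNFRSF9 between 1.25 and 1.72 and of NGFR between 1.41 and 1.68. Without the 50 bases after the start, the count of promoters with each motif stayed within 1.5 times. No paired analysis was possible because the table gives 1 mean over all libraries and the recovered reads carry no replicate number.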

Other observations

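SPINK2 had normalized counts of 6.09, 53.1, 63.0, 55.8, 8.92 and 6.78 in libraries A to F, with no library between 8.92 and 53.1. TNFRSF13C had 51.8, 98.1, 89.9, 89.7, 42.6 and 53.2, with no library between 53.2 and 89.7. Both genes were picked after their values were seen, and how many other genes part in such a way was not counted. Libraries A, E and F were the low ones for SPINK2 and for TNFRSF13C. These libraries carry no label, no test was run on them, and a difference between the groups was not tested.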
